A study of Mus musculus with 9 samples.

Results

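The genes described here are 10 readouts and core parts of the canonical Wnt pathway, Axin2, Nkd1, Rnf43, Tcf7l2, Tcf7, Lef1, Ctnnb1, Axin1, Apc and Gsk3b, of 55274 genes measured. They were chosen by name, and Axin2 was noted in the choice as lower in NUP98-NSD1+NRASG12D than in NUP98-NSD1 cells. For this reason no test is given for any of the 10 genes between these 2 groups, and none for Axin2 in any comparison. RNA was sequenced from 9 cultures of mouse bone marrow cells, 3 each expressing NRASG12D, NUP98-NSD1 or both. NRASG12D is a RAS protein that an amino acid substitution keeps switched on. NUP98-NSD1 is a fusion of a nuclear pore protein with a histone methyltransferase that is found in acute myeloid leukemia.

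All groups came from female C57BL/6J mice, 6 to 8 weeks old, that had received 150 mg/kg of 5-fluorouracil (5-FU), which removes dividing cells from the marrow, 4 days before harvest. All cells were stimulated with IL-6, IL-3 and stem cell factor for 48 h and transduced with retroviral vectors, so the oncogenes were driven by a vector promoter. NRASG12D was carried by MSCV-IRES-BFP, marked with blue fluorescent protein, NUP98-NSD1 by MSCV-IRES-GFP, marked with green fluorescent protein, and NUP98-NSD1+NRASG12D cells carried both. Cells were sorted by these colors and expanded before RNA was isolated. Untransduced cells were not analysed here, so each comparison is between transduced cultures. Nothing in the labels or methods says that the 3 libraries of a group came from separate mice or transductions, so p-values measure the spread between these libraries.

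In the canonical Wnt pathway, secreted Wnt proteins bind Frizzled receptors and LRP co-receptors at the cell surface. Without this signal a complex of AXIN, APC and the kinases GSK3 and CK1 marks β-catenin for degradation, and with it β-catenin builds up and joins TCF/LEF factors on DNA. The pathway switches on its own inhibitors, of which Axin2 is the most widely used readout. In blood cells, TCF7 and LEF1 are best known for their part in T cell development, and β-catenin has been studied for its role in the self-renewal of leukemic stem cells.

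The values are FPKM, fragment numbers divided by transcript length and by the mapped total of each library, which can be compared between genes of different length. Estimated depth was between 22500000 and 35400000 fragments per library, and 3 fragments were taken as the smallest detectable amount. Without molecular identifiers, that floor allows for counting error alone. Nras, counted as a check of the labels, was at 348 to 479 FPKM with NRASG12D, 47.7 to 51.2 with NUP98-NSD1 and 245 to 701 with both oncogenes, so it was higher wherever the label names NRASG12D. The fusion itself was not measured here. Of its partner genes, Nup98 was at 9.12 to 11.1, 18.2 to 19.0 and 11.9 to 20.2 FPKM in the same order of groups, higher in all 6 libraries labelled with the fusion, while Nsd1 overlapped between all groups (9.98 to 16.2 FPKM over the 9 libraries) and did not follow the label. The labels name bone marrow cells, and the cell type markers differed strongly between groups. From surface markers and morphology, the paper describes transduced NRASG12D cells as mostly mast cells bearing the IgE receptor. It reports a larger share of immature myeloid cells with both oncogenes than with NUP98-NSD1. A set of 9 mast cell markers summed to between 30017 and 32656 FPKM with NRASG12D, 13672 and 17477 with NUP98-NSD1, and 459 and 2514 with both oncogenes. All of these 9 reached 1 FPKM in every NRASG12D and NUP98-NSD1 library. A further mast cell marker, Cpa3, was listed at 0 in all NRASG12D libraries and was kept out of this sum. It was at 12564 to 14378 FPKM with NUP98-NSD1 and 280 to 1821 with both oncogenes. Other mast cell markers were high with NRASG12D, with means of 3897 FPKM for Fcer1a and 14878 for Cma1. The listed 0 of Cpa3 may therefore not be a true level, which was not checked. Granulocyte markers (9 genes) ran the other way, from 26.6 to 34.4 FPKM with NRASG12D, 1725 to 6122 with NUP98-NSD1 and 8860 to 19446 with both oncogenes, and Ltf and Camp were listed at 0 in all NRASG12D libraries. Monocyte or macrophage markers (6 genes) summed to between 40.5 and 53.1, 420 and 825, and 1640 and 4551 FPKM in the same order. Marker levels thus differed along with the oncogenes, and in bulk RNA fewer cells of a type and less RNA per cell cannot be told apart.

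The sequence before the transcription start is shown for Axin2 and Tcf7l2, which had the largest log2 differences of the 6 tested members, in opposite directions between the NUP98-NSD1 groups. The windows are the 250 bases before RefSeq starts on GRCm38.p6, on the strand of the gene, 5′ to 3′. They were searched on both strands for the letters CTTTGAT, for the variant that ends differently as CTTTGAA, for a further variant spelled CTTTGTT and for a last variant spelled CTTTGTA. These are forms of the TCF/LEF recognition sequence, and a match is shown in capitals.
Axin2, chr11:108920099-108920348, plus strand: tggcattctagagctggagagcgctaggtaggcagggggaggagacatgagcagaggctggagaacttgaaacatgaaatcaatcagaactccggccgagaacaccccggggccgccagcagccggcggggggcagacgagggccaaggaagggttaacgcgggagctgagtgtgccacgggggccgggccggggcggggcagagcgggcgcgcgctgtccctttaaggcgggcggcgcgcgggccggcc
Tcf7l2, upstream start, chr19:55741560-55741809, plus strand: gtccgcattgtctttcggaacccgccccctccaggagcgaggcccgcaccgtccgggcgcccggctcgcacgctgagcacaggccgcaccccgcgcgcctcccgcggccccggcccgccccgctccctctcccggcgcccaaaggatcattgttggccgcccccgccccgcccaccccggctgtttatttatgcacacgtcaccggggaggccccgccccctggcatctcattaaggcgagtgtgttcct
Tcf7l2, internal start, chr19:55895071-55895320, plus strand: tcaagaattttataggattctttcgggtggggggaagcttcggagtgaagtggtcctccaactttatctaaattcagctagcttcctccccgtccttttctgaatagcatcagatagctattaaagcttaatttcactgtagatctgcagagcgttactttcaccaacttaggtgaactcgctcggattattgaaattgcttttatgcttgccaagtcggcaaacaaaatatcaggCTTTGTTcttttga
The Axin2 window and the upstream Tcf7l2 window lie just before the gene and held none of these letters. The internal Tcf7l2 window lies within the gene, in sequence that no exon of the GENCODE M21 annotation covers, and held CTTTGTT from 14 to 8 bases before the start. RefSeq gave 15 windows for 8 of the 10 genes, and Axin1 and Apc had none. A match was found in 2 of the 15, the other being an internal start of Lef1 (CTTTGTA on the minus strand). Of all 32851 windows of the same length, 14.8% held at least 1 of these letter strings. A match is a description of the sequence, and no match says only that these letters are not in the window.

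Axin2, an inhibitor that is itself switched on by β-catenin and TCF, was present in NRASG12D cells, highest in NUP98-NSD1 cells and close to absent in NUP98-NSD1+NRASG12D cells. The gene (ENSMUSG00000000142.15) lies on chromosome 11, from 108920349 to 108950783 on the plus strand of GRCm38. Its FPKM was 5.86, 3.85 and 4.92 in NRASG12D replicates 1 to 3. In NUP98-NSD1 cells it was 7.89, 9.76 and 9.31. In NUP98-NSD1+NRASG12D cells it was 0.0535, 0.636 and 0.166. No library of one group overlapped with another, and the lowest NUP98-NSD1 library was above the highest NRASG12D library. The means were 4.87 ± 1.0, 8.99 ± 0.976 and 0.285 ± 0.309 (SD, n = 3 each). NUP98-NSD1 cells thus had 31.5 times the mean of NUP98-NSD1+NRASG12D cells, and the closest pair of libraries of these groups differed 12.4-fold. NRASG12D cells had 17.1 times the mean of NUP98-NSD1+NRASG12D cells, with 6.05-fold between the closest libraries. NUP98-NSD1 was above NRASG12D by a ratio of means of 1.84, and the closest libraries differed 1.35-fold.

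The low values in NUP98-NSD1+NRASG12D cells rest on few fragments, about 6.42, 65.9 and 16.1 for the longest Axin2 transcript, against 471 to 1098 in the other 6 libraries. All were above the level given by 3 fragments, which was 0.0199 to 0.0313 FPKM depending on the library. The spread within this group was wide relative to its mean, and the distance to the other groups was wider. An overlapping gene on the opposite strand, Gm11670, shares 3.8% of the Axin2 exon bases and was at 0.116 FPKM or less in every library. Strand-specific counting is not stated, so reads of the shared part cannot be assigned.

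**Figure D1:**
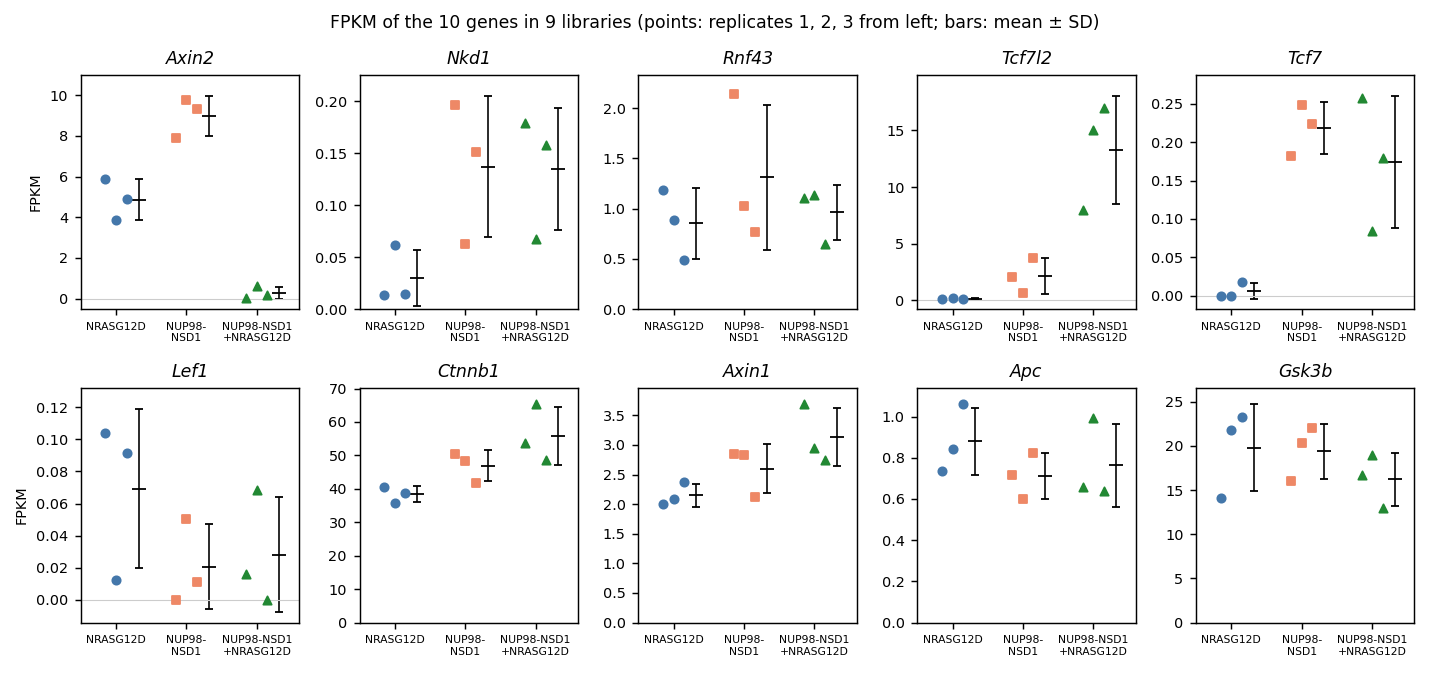
FPKM (linear axis, its own scale in each panel) of the 10 genes in each library, with 3 replicates per group as points from left to right and the mean ± SD beside them. Axin2 lies between 7.89 and 9.76 with NUP98-NSD1 and at 0.636 or below with both oncogenes, whereas Tcf7l2 lies at 0.198 or below in NRASG12D and between 7.94 and 17.0 with both oncogenes.

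Its constitutive paralog Axin1, the scaffold of the β-catenin degradation complex, did not share this pattern. Axin1 was at 2.01, 2.08 and 2.37 FPKM with NRASG12D, 2.84, 2.83 and 2.12 with NUP98-NSD1 and 3.69, 2.95 and 2.75 with both oncogenes. NRASG12D and NUP98-NSD1 overlapped, as did NUP98-NSD1 and NUP98-NSD1+NRASG12D, while every library with both oncogenes was above every NRASG12D library. Within a library, the ratio of Axin2 to Axin1 does not depend on the scaling between libraries. It was 1.85 to 2.92 with NRASG12D, 2.78 to 4.38 with NUP98-NSD1 and 0.0145 to 0.216 with both oncogenes, so Axin2 exceeded its paralog in 6 libraries and was below it in the 3 with both oncogenes.

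The sum of the 9 mast cell markers was also lowest in NUP98-NSD1+NRASG12D cells. Of the 9, Hdc had its lowest mean with NRASG12D (4.65 FPKM, against 71.6 with both oncogenes), and all others had it with both oncogenes. Cpa3, outside the sum, was listed at 0 with NRASG12D. Among the 3 libraries with both oncogenes, replicate 2 had the highest Axin2 (0.636 FPKM) and the highest summed mast cell markers (2514 FPKM). Between the other groups the order differed, since NUP98-NSD1 libraries had the higher Axin2 and the lower sum of these 9 markers. With Cpa3 added, the sum was 26832 to 31856 FPKM with NUP98-NSD1 and overlapped that of NRASG12D (30017 to 32656). This overlap takes the listed 0 of Cpa3 with NRASG12D as its level, so nothing is read from it. Of the 9, Mcpt4 and Hdc were higher with NUP98-NSD1 than with NRASG12D, Tpsab1 and Gata2 overlapped, and the rest were lower. Axin2 per 1000 FPKM of the 9 markers, without Cpa3, was 0.118 to 0.195 with NRASG12D, 0.533 to 0.684 with NUP98-NSD1 and 0.0867 to 0.361 with both oncogenes. On this scale the libraries with both oncogenes overlapped with NRASG12D libraries and stayed below all NUP98-NSD1 libraries. Against 1 of these markers alone, Kit, which progenitors also express, they did not stay apart. Axin2 per 100 FPKM of Kit was 0.344 to 0.596 with NRASG12D, 2.04, 2.55 and 1.66 with NUP98-NSD1 and 0.149, 0.901 and 2.0 with both oncogenes, so replicate 3 of the last group lay within the NUP98-NSD1 range. The part of cell type in the Axin2 levels was not tested.

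**Figure D2:**
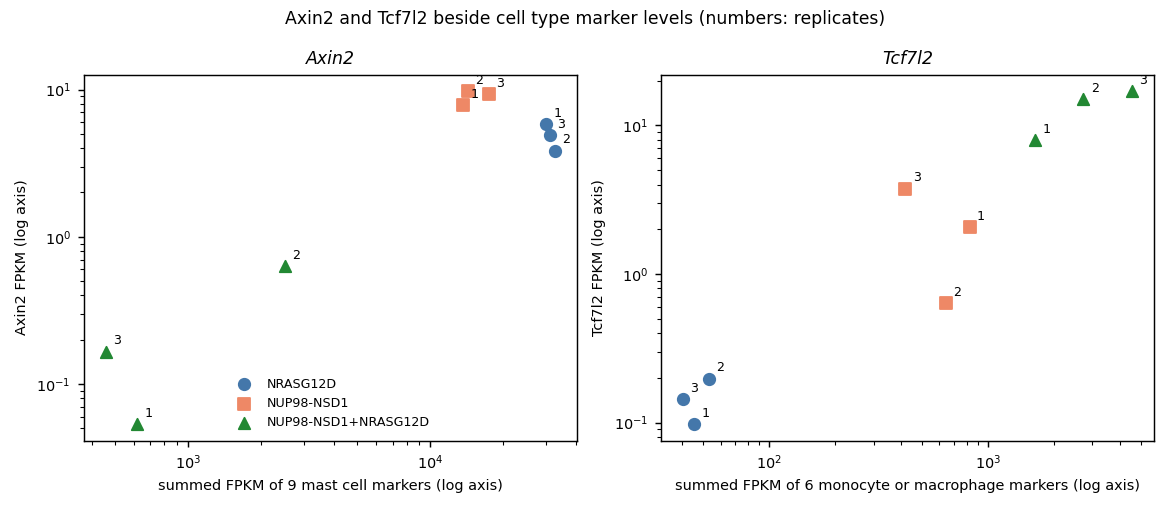
Axin2 against the summed FPKM of 9 mast cell markers (left) and Tcf7l2 against the summed FPKM of 6 monocyte or macrophage markers (right), all on log axes, with 1 point per library numbered by replicate. Axin2 is at 0.636 FPKM or below in the 3 libraries with mast cell markers at 2514 or below, and Tcf7l2 is at 7.94 or above in the 3 libraries with monocyte or macrophage markers at 1640 or above.

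The genes whose pattern over the 9 libraries was closest to Axin2 were Usp17ld, Egr3 and Cma2. After each gene was centered on its own mean of log2(FPKM + 1), they differed from Axin2 by a root mean square of 0.225, 0.281 and 0.29, the smallest of 13492 genes compared. Usp17ld ranged from 5.31 to 6.05 FPKM with NRASG12D, 7.35 to 9.02 with NUP98-NSD1 and 0.31 to 1.01 with both oncogenes, values that are uncertain as it belongs to a family of closely similar genes. Egr3, an immediate early transcription factor, was at 5.92 to 8.22, 11.5 to 21.2 and 0.3 to 1.48 FPKM. Cma2, a gene of the mast cell chymase family, was at 7.21 to 7.83, 8.1 to 10.2 and 0.0882 to 0.788 FPKM.

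The other feedback inhibitors among the 10 genes were low. Nkd1, which binds Dishevelled and dampens the signal, was at 0.0138, 0.0614 and 0.0147 FPKM with NRASG12D, 0.196, 0.0627 and 0.151 with NUP98-NSD1 and 0.179, 0.0679 and 0.158 with both oncogenes. It was above the 3-fragment level in 7 of 9 libraries, with at most 23.5 fragments, and the highest NRASG12D library (0.0614) lay just below the lowest of the others (0.0627). Rnf43, a ubiquitin ligase that removes Frizzled receptors from the surface, was at 1.19, 0.885 and 0.487 FPKM with NRASG12D, 2.14, 1.03 and 0.769 with NUP98-NSD1 and 1.11, 1.14 and 0.646 with both oncogenes. All 3 groups of Rnf43 overlapped. Nkd1 lies on chromosome 8, from 88521354 to 88594884, and Rnf43 on chromosome 11, from 87662722 to 87735539, both on the plus strand. The low Axin2 in cells with both oncogenes was thus not seen in Nkd1 or Rnf43, whose means there were 0.135 ± 0.0589 and 0.964 ± 0.276 FPKM (SD, n = 3), against 0.137 ± 0.0678 and 1.31 ± 0.725 in NUP98-NSD1 cells.

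Among the TCF/LEF factors, through which β-catenin acts on DNA, Tcf7l2 had the highest level in all 6 libraries that carry the fusion. It (ENSMUSG00000024985.19) lies on chromosome 19, from 55741820 to 55933654 on the plus strand. Tcf7l2 was at 0.0979, 0.198 and 0.144 FPKM with NRASG12D, 2.06, 0.637 and 3.75 with NUP98-NSD1 and 7.94, 15.0 and 17.0 with both oncogenes. The groups were ordered NRASG12D, NUP98-NSD1 and NUP98-NSD1+NRASG12D from low to high without overlap, whereas Axin2 was lowest with both oncogenes. Means were 0.147 ± 0.0501, 2.15 ± 1.56 and 13.3 ± 4.76 (SD, n = 3), with the widest relative spread in NUP98-NSD1 cells. The mean with both oncogenes was 6.2 times that of NUP98-NSD1 cells, with 2.12-fold between the closest libraries.

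Of the 10 genes, 6 passed the filter for testing (FPKM of 1 or more in at least 3 of 9 libraries), namely Axin2, Axin1, Tcf7l2, Ctnnb1, Rnf43 and Gsk3b. Lef1, Tcf7, Nkd1 and Apc did not. A gene was called where the adjusted p of limma, a linear model fitted across all 13493 genes passing the filter, was below 0.05. Of the 5 tested genes other than Axin2, 1 was called in NUP98-NSD1 against NRASG12D cells, where 52.1% of all tested genes were called (42.2% higher, 9.98% lower in NUP98-NSD1). In NUP98-NSD1+NRASG12D against NRASG12D cells, 2 of 5 were called, against 38.3% of all tested genes (24.2% higher, 14.1% lower). These comparisons share the NRASG12D libraries and are not independent. A count of 1 in 5 is below the first background share and 2 in 5 is close to the second, so the single genes are described. The median of all tested genes was itself shifted, by 0.272 and 0.229 on the log2 scale, and was -0.0126 and 0.0253 after median-ratio scaling. With that scaling, the share of the calls that were higher went from 80.9% to 49.3% in the first and from 63.1% to 50.9% in the second comparison.

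Tcf7l2 rose in both comparisons. On the log2(FPKM + 1) scale, which understates the change of low genes, it was higher by 1.33 in NUP98-NSD1 than in NRASG12D cells (SE 0.36, limma adjusted p = 0.0184) and by 1.06 after the median of all genes was subtracted. This call was lost without NRASG12D replicate 1 or 3 or NUP98-NSD1 replicate 1 (limma adjusted p = 0.0508, 0.057 and 0.056), and also without a filter on low values and with quantile normalization (0.0832 and 0.19). No NRASG12D library reached 1 FPKM of Tcf7l2, so it passed the filter through the groups in which it was high. Tcf7l2 was higher by 3.58 in NUP98-NSD1+NRASG12D than in NRASG12D cells (SE 0.28, limma adjusted p = 0.000206), and this call held in all 13 alternatives, with adjusted p of limma from 1.64e-05 to 0.00239. In FPKM the closest libraries differed 3.22-fold in the first and 40.1-fold in the second comparison.

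The related factors were near or below detection. Tcf7, the factor of early T cells, was at 0, 0 and 0.0183 FPKM with NRASG12D, 0.182, 0.249 and 0.224 with NUP98-NSD1 and 0.257, 0.0844 and 0.18 with both oncogenes. It was above the 3-fragment level in the 6 libraries with NUP98-NSD1 and in no NRASG12D library, at 5.07 to 17.9 fragments, so its presence rests on few reads. Lef1 was at 0.104, 0.0126 and 0.0915 FPKM with NRASG12D, 1.02e-05, 0.0505 and 0.0113 with NUP98-NSD1 and 0.0158, 0.0683 and 0 with both oncogenes. Only 4 of the 9 Lef1 values were above the 3-fragment level, none reached 10 fragments (at most 9.11), and all groups overlapped. Tcf7 lies on the minus strand of chromosome 11, from 52252371 to 52283014, and Lef1 on the plus strand of chromosome 3, from 131110471 to 131224356. An antisense gene, Gm43352, shares 13.7% of the Lef1 exon bases. T cell markers (7 genes), which mark cells that use TCF7 and LEF1, summed to 0.239 to 0.422 FPKM with NRASG12D, 0.206 to 0.86 with NUP98-NSD1 and 0.812 to 2.31 with both oncogenes, and none of the 7 reached 1 FPKM in every library of a group. Cd3e and Cd8a were listed at 0 in all libraries with both oncogenes.

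Taking the TCF/LEF factors of the mouse together, Tcf7l2, Tcf7, Lef1 and Tcf7l1, their summed level was 0.295 to 0.567 FPKM with NRASG12D, 1.23 to 4.1 with NUP98-NSD1 and 8.39 to 17.2 with both oncogenes. Tcf7l2 made up 17.3% to 67.2% of this sum in NRASG12D, 51.7% to 91.6% with NUP98-NSD1 and 94.7% to 99.0% with both oncogenes. NRASG12D cells therefore had little of any TCF/LEF transcript, and in cells with both oncogenes nearly all of it was Tcf7l2.

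**Figure D3:**
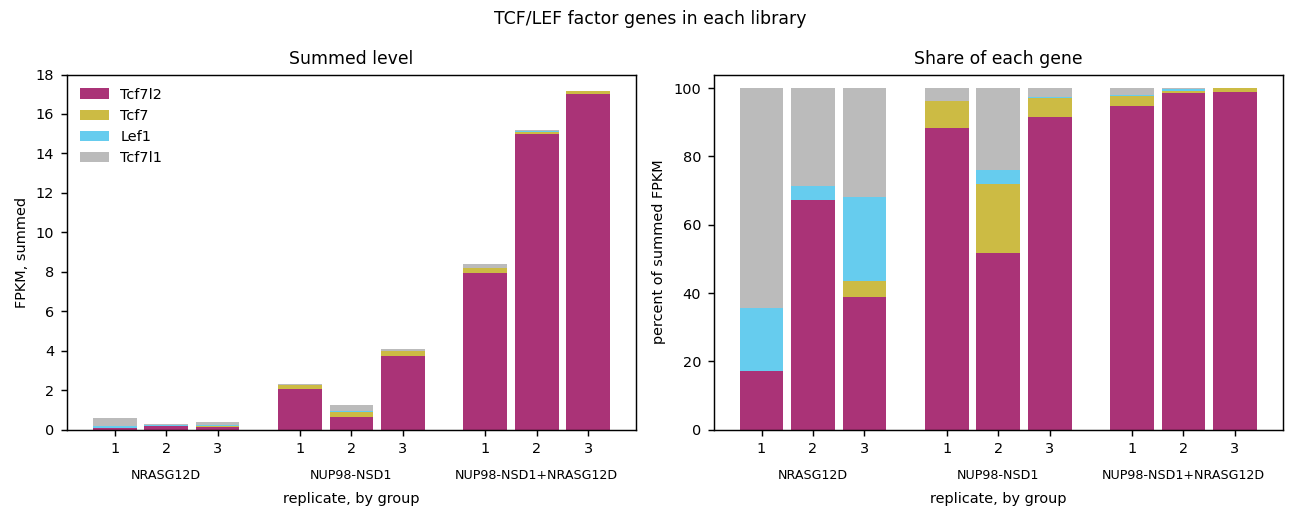
Summed FPKM (left) and percent of that sum (right) of the TCF/LEF genes Tcf7l2, Tcf7, Lef1 and Tcf7l1 in each of the 9 libraries, as stacked bars by group and replicate. The summed level is 0.567 FPKM or less in NRASG12D and 8.39 or more with both oncogenes, where Tcf7l2 makes up at least 94.7%.

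The sum of monocyte or macrophage markers was ordered as Tcf7l2 between the groups, while Adgre1 and Mrc1 overlapped between the NUP98-NSD1 groups. Within NUP98-NSD1 cells the order of libraries was not the same, as replicate 3 had the highest Tcf7l2 (3.75 FPKM) and the lowest marker sum (420 FPKM). In cells with both oncogenes it was the same, with marker sums of 1640, 2733 and 4551 FPKM beside 7.94, 15.0 and 17.0 FPKM of Tcf7l2. The largest part of these sums was Ly6c2 (1345, 1384 and 3674 FPKM), which kept that order, as did Cd14. Csf1r, Adgre1, Cd68 and Mrc1 did not, as they were highest in replicate 2 (158, 296, 682 and 132 FPKM). The part of cell type in the Tcf7l2 levels was not tested. The genes closest to Tcf7l2 in pattern, by the same measure as for Axin2, were Fcgr4, A530064D06Rik and Cd38, with a root mean square difference of 0.322, 0.362 and 0.37. Fcgr4, an activating Fc receptor of myeloid cells, was at 0 to 0.146 FPKM with NRASG12D, 1.47 to 2.38 with NUP98-NSD1 and 7.63 to 19.3 with both oncogenes. Cd38, a surface enzyme of activated leukocytes, was at 0 to 0.0433, 0.999 to 2.08 and 7.5 to 14.0 FPKM.

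Ctnnb1, which encodes β-catenin, was the most abundant of the 10 genes in every library. Its transcript level carries no information on protein stability, through which the pathway acts. Ctnnb1 was at 40.6, 35.9 and 38.9 FPKM with NRASG12D, 50.4, 48.4 and 41.7 with NUP98-NSD1 and 53.8, 65.4 and 48.5 with both oncogenes. NRASG12D libraries were below all others, and the other groups overlapped. The log2 difference against NRASG12D was 0.27 in NUP98-NSD1 cells (SE 0.1, limma adjusted p = 0.0513) and 0.52 in NUP98-NSD1+NRASG12D cells (SE 0.16, limma adjusted p = 0.0401), which left 0.0031 and 0.29 after subtraction of the median of all genes. After median-ratio scaling the first difference turned to -0.055 and the call of the second was lost (0.29, limma adjusted p = 0.251). The second call was also lost without any one of the NRASG12D replicates 1, 2 and 3 or NUP98-NSD1+NRASG12D replicate 2 (limma adjusted p = 0.105, 0.146, 0.127 and 0.0544). Exon bases shared with Ulk4 on the opposite strand made up 14.6% of Ctnnb1, and Ulk4 was at 0.473 FPKM or less. The gene lies on chromosome 9, from 120929216 to 120960507 on the plus strand.

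Neither tested component of the degradation complex, Axin1 or Gsk3b, passed the threshold. Axin1 was higher by 0.19 (SE 0.13, limma adjusted p = 0.272) in NUP98-NSD1 and by 0.38 (SE 0.17, limma adjusted p = 0.111) in NUP98-NSD1+NRASG12D than in NRASG12D cells, and the first turned to -0.053 after median-ratio scaling. Gsk3b, the kinase that phosphorylates β-catenin, was at 14.1, 21.8 and 23.3 FPKM with NRASG12D, 16.0, 20.3 and 22 with NUP98-NSD1 and 16.7, 19.0 and 13.0 with both oncogenes. Its log2 differences against NRASG12D were -0.0049 (SE 0.2, limma adjusted p = 0.986) and -0.25 (SE 0.24, limma adjusted p = 0.417). Apc, the large scaffold of the complex, was at 0.735, 0.844 and 1.06 FPKM with NRASG12D, 0.716, 0.599 and 0.822 with NUP98-NSD1 and 0.656, 0.995 and 0.639 with both oncogenes. All groups overlapped for Gsk3b and Apc. Axin1 lies on chromosome 17, from 26138688 to 26195811, and Gsk3b on chromosome 16, from 38089001 to 38246084, both on the plus strand. Rnf43 gave log2 differences of 0.29 (SE 0.25, limma adjusted p = 0.357) and 0.091 (SE 0.21, limma adjusted p = 0.755), and missing the threshold does not show that these genes were equal between groups.

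**Figure D4:**
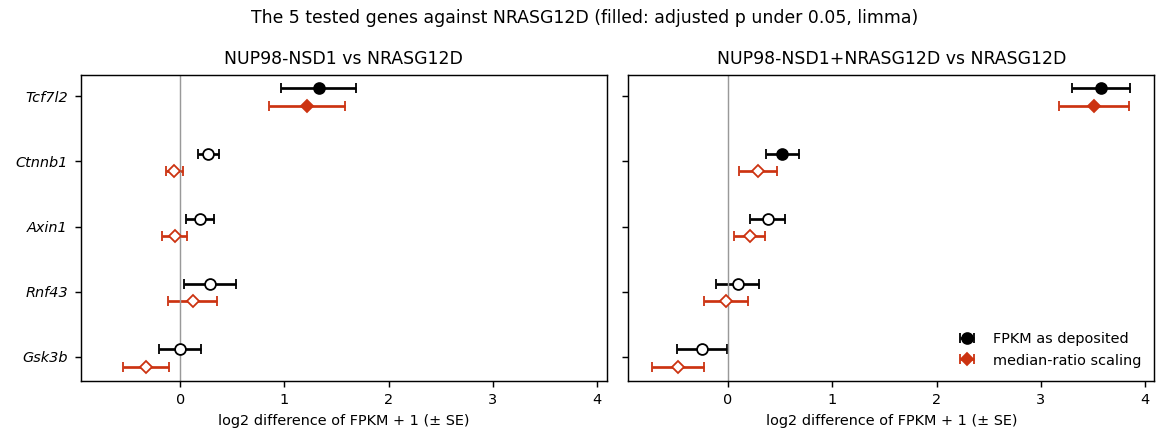
Log2 differences of FPKM + 1 against NRASG12D for the 5 tested genes other than Axin2, with standard errors, for FPKM as deposited (circles) and after median-ratio scaling (diamonds), filled where the limma adjusted p is under 0.05. Tcf7l2 lies at 1.33 and 3.58 with FPKM as deposited, and Ctnnb1 moves with the scaling from 0.27 to -0.055 (left) and from 0.52 to 0.29 (right).

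For the contrast for which the genes were chosen, both oncogenes against NUP98-NSD1 alone, the log2 differences of the 6 genes above the filter are given as a description. They were -2.98 for Axin2, 2.25 for Tcf7l2, 0.24 for Ctnnb1, 0.2 for Axin1, -0.2 for Rnf43 and -0.25 for Gsk3b. Only Axin2, which was noted in the choice of the genes, and Tcf7l2 had groups without overlap. The share of all genes without overlap was not counted, so this is a description alone. In this contrast 8.61% of all tested genes were called (2.3% higher, 6.31% lower in NUP98-NSD1+NRASG12D), and nothing is read from the members against this share.

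The setting of these genes was described with a wider list of 117 Wnt pathway genes by role, without the 10. Of these, 55 passed the filter and 59 were below 1 FPKM in all libraries. In NUP98-NSD1 against NRASG12D cells, 16 rose and 8 fell (43.6% called, median log2 difference 0.16), beside 52.1% and 0.272 for all genes. After median-ratio scaling the calls split into 10 higher and 14 lower. In NUP98-NSD1+NRASG12D against NRASG12D cells, 11 rose and 9 fell (36.4%, median -0.012), and 9 and 10 after scaling. In NUP98-NSD1+NRASG12D against NUP98-NSD1 cells, 4 rose and 2 fell (10.9%, median -0.077), beside 8.61% of all genes. This last count of 6 dropped to 3 without any one of the NUP98-NSD1 replicates 1, 2 and 3 or without NUP98-NSD1+NRASG12D replicate 3. Without a filter on low values it was 1. Of the 24, 20 and 6 called genes, 8, 9 and 2 had no library of the lower group at 1 FPKM and passed the filter through groups in which they were higher, so these counts do not support a difference of the list. The called shares were near those of all genes in each comparison.

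Wnt ligands were nearly absent from these cultures, as 17 of 19 were below 1 FPKM in every library. The 1 ligand that passed the filter, Wnt9a, was at 0.704 ± 0.151 FPKM with NRASG12D, 2.13 ± 0.965 with NUP98-NSD1 and 0.324 ± 0.364 in NUP98-NSD1+NRASG12D cells (SD, n = 3). It rose in NUP98-NSD1 against NRASG12D cells (log2 difference 0.83, SE 0.24, limma adjusted p = 0.0258), a call lost without NRASG12D replicate 2 or 3 or NUP98-NSD1 replicate 1 or 2 (limma adjusted p = 0.068 to 0.0836). Wnt9a reached 1 FPKM in the 3 NUP98-NSD1 libraries only and so was tested because of the group in which it was high, and the call was lost without the filter and with quantile normalization (limma adjusted p = 0.102 and 0.271). Between the NUP98-NSD1 groups its log2 difference was -1.22, which missed the threshold (limma adjusted p = 0.0547).

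Of 15 receptor genes, 10 were below 1 FPKM throughout. Fzd4, a Frizzled receptor, was at 6.5 ± 0.768 FPKM with NRASG12D, 3.35 ± 1.07 with NUP98-NSD1 and 0.372 ± 0.256 in NUP98-NSD1+NRASG12D cells (SD, n = 3). It fell in all 3 comparisons, with log2 differences of -0.81 and -2.46 against NRASG12D (limma adjusted p = 0.0101 and 0.000229) and -1.66 between the NUP98-NSD1 groups (limma adjusted p = 0.011), and no groups overlapped. The last of these calls was lost without a filter (limma adjusted p = 0.0696). No NUP98-NSD1+NRASG12D library reached 1 FPKM of Fzd4, so the gene passed the filter through the groups in which it was higher. The co-receptor gene Lrp5 rose against NRASG12D in both groups, by 0.97 and 0.92 (limma adjusted p = 0.00174 and 0.0484). The second Lrp5 call was lost after either scaling, without a filter and without NRASG12D replicate 1, 2 or 3 or NUP98-NSD1+NRASG12D replicate 3 (limma adjusted p = 0.069 to 0.145 for Lrp5 without these libraries). Of the secreted or surface inhibitors, 12 of 14 were below 1 FPKM throughout. Dkk2, an antagonist of LRP co-receptors, fell in NUP98-NSD1+NRASG12D against NRASG12D cells, from 2.73 ± 1.19 to 0.214 ± 0.331 FPKM (limma adjusted p = 0.00783, and 0.0401 without a filter). It too was below 1 FPKM in every library with both oncogenes and passed the filter through groups in which it was higher. Of 8 genes of the R-spondin axis and 2 of ligand export, 1 each was tested and neither was called.

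Among 20 cytoplasmic genes, 16 were tested, and 4 rose in NUP98-NSD1 and 2 in NUP98-NSD1+NRASG12D against NRASG12D cells, with none lower (25% and 12.5%, beside 52.1% and 38.3% of all genes). After median-ratio scaling it was 1 higher and 1 lower in each comparison. Frat1, which binds GSK3 and keeps it from β-catenin, rose most, from 0.416 ± 0.0918 FPKM in NRASG12D to 2.65 ± 1.19 with NUP98-NSD1 and 5.71 ± 3.42 in NUP98-NSD1+NRASG12D cells (limma adjusted p = 0.00641 and 0.00363). No NRASG12D library reached 1 FPKM of Frat1, so it was tested because of the groups in which it was high. Without a filter both calls held (limma adjusted p = 0.0347 and 0.022). Dvl2, a Dishevelled gene, and Skp1a, part of the ubiquitin ligase that acts on β-catenin, rose in NUP98-NSD1 cells by 0.57 and 0.56, and both calls were lost after median-ratio scaling. Tnks2, a tankyrase that marks AXIN for degradation, rose by 0.52 in NUP98-NSD1+NRASG12D cells, which was also lost with that scaling and without the same 4 libraries as for Lrp5 (limma adjusted p = 0.0581 to 0.155).

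Of 15 tested nuclear partners, 4 rose and 2 fell in NUP98-NSD1 (6 of 15, beside 52.1% of all genes) and 3 rose and 2 fell in NUP98-NSD1+NRASG12D cells (33.3%, beside 38.3%), and after median-ratio scaling the first split was 1 higher and 5 lower. Groucho-related genes, which include repressors of TCF targets, split, as Tle2 and Tle3 fell and Tle4 and Aes rose in both groups against NRASG12D. Tle3 was at 64.6 ± 10.9 FPKM with NRASG12D, 46.2 ± 8.31 with NUP98-NSD1 and 28.7 ± 0.567 in NUP98-NSD1+NRASG12D cells, and Tle4 at 0.509 ± 0.103, 1.34 ± 0.433 and 2.77 ± 0.615. The Aes call in NUP98-NSD1 cells was lost after median-ratio scaling and with quantile normalization (limma adjusted p = 0.111 and 0.08). Those of Tle3 and Tle4 in these cells were lost without NRASG12D replicate 2 or 3 or NUP98-NSD1 replicate 1 or 2 (limma adjusted p = 0.119 to 0.143 and 0.063 to 0.0808) and without a filter (0.159 and 0.0818). With quantile normalization the Tle4 difference in these cells was 0.068 (limma adjusted p = 0.806). NRASG12D and NUP98-NSD1 libraries overlapped for Tle3. No NRASG12D library reached 1 FPKM of Tle4, so it was tested because of the groups in which it was high. Ctbp2, a corepressor, was the nuclear partner called between the NUP98-NSD1 groups, at 5.51 ± 0.354 FPKM in NUP98-NSD1 and 9.52 ± 0.916 in NUP98-NSD1+NRASG12D cells (limma adjusted p = 0.0427). The call was lost without NUP98-NSD1 replicate 1, 2 or 3 or NUP98-NSD1+NRASG12D replicate 2 or 3 (limma adjusted p = 0.0616 to 0.171) and without a filter (0.0875).

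Of 14 genes that textbooks list as Wnt targets, 9 were tested, and between the NUP98-NSD1 groups 3 rose and 1 fell (44.4%, beside 8.61% of all genes, 2.3% higher and 6.31% lower). Without a filter on low values only Jun, 1 of these 4, was still called. Ccnd1, the G1 cyclin D1, rose from 2.95 ± 0.847 to 35.9 ± 15.5 FPKM (log2 difference 3.14, SE 0.37, limma adjusted p = 0.00793, and 0.0523 without a filter). Cd44, an adhesion receptor, and Ascl2, a transcription factor of intestinal stem cells, also rose, by 0.96 and 1.15 (limma adjusted p = 0.0397 and 0.0444), and both calls were lost after median-ratio scaling and without the same 5 libraries as for Ctbp2, namely NUP98-NSD1 replicates 1, 2 and 3 and NUP98-NSD1+NRASG12D replicates 2 and 3 (limma adjusted p = 0.0798 to 0.155 and 0.0526 to 0.158). Without a filter these were 0.132 and 0.187 (limma adjusted p), and Ascl2 reached 1 FPKM only in the 3 libraries with both oncogenes, so it was tested because of the group in which it was high. Jun, part of the AP-1 factor, fell from 242 ± 31.8 to 69.9 ± 8.74 FPKM (limma adjusted p = 0.00566). Jun had the same order of groups as Axin2, with 129 ± 19.9 FPKM in NRASG12D cells between the others. Ccnd1 had the opposite order for the NUP98-NSD1 groups and was at 31.0 ± 20.1 FPKM in NRASG12D cells.

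Against NRASG12D, Cd44 rose in both groups, from 9.42 ± 0.613 to 28 ± 3.7 and 56.1 ± 12.5 FPKM. Bambi, a decoy receptor of the TGF-β family, rose from 0.0249 ± 0.00797 to 1.37 ± 0.715 and 2.66 ± 1.44 FPKM. Ccnd2, the most abundant gene of the list, fell from 1201 ± 193 to 460 ± 75.1 and 208 ± 74.0 FPKM. Ccnd1 was lower in NUP98-NSD1 cells (log2 difference -2.78, SE 0.52, limma adjusted p = 0.00506, and 0.031 without a filter). With both oncogenes it was not called against NRASG12D (log2 difference 0.36, SE 0.6, limma adjusted p = 0.659). Of the 9 tested targets, 4 rose and 3 fell in NUP98-NSD1 and 3 rose and 3 fell in NUP98-NSD1+NRASG12D cells (77.8% and 66.7%, beside 52.1% and 38.3% of all genes). The Bambi call in NUP98-NSD1 cells was lost with quantile normalization (limma adjusted p = 0.101). No NRASG12D library reached 1 FPKM of Bambi, so it was tested because of the groups in which it was high.

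Of 6 partners of β-catenin at cell contacts, 2 rose and 2 fell in each comparison against NRASG12D (66.7% in both, beside 52.1% and 38.3% of all genes). Cdh1 (E-cadherin) rose from 0.157 ± 0.105 FPKM to 2.38 ± 0.825 and 5.59 ± 1.27 (limma adjusted p = 0.00149 and 0.000235). Cdh2 (N-cadherin) fell from 6.33 ± 0.207 to 0.568 ± 0.33 and 0.057 ± 0.038 (limma adjusted p = 0.00023 and 6.19e-05). No NRASG12D library reached 1 FPKM of Cdh1, and only NRASG12D libraries did so for Cdh2. Both were thus tested because of the groups in which they were high. Without a filter they were still called (limma adjusted p = 0.0114 and 0.00239 for Cdh1, 0.00325 and 0.000796 for Cdh2). Ctnna1 (α-catenin), which links cadherins to actin, fell from 108 ± 8.16 to 57.1 ± 7.36 and 36.8 ± 11.2 (limma adjusted p = 0.00135 and 0.00269). None of the 6 genes of this class was called between the NUP98-NSD1 groups.

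**Figure D5:**
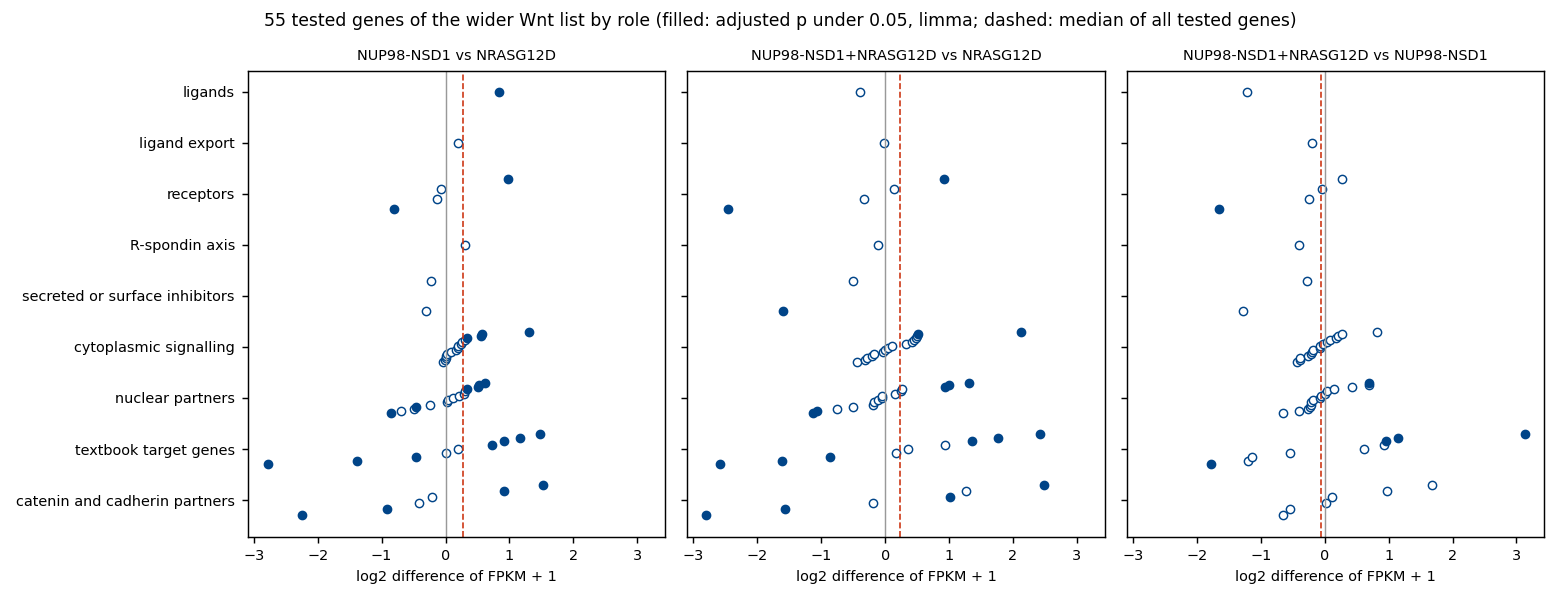
Log2 differences of FPKM + 1 for the 55 tested genes of the wider list by role in the 3 comparisons, 1 point per gene, filled where the limma adjusted p is under 0.05, with the median of all tested genes dashed. Calls are 16 higher and 8 lower, 11 higher and 9 lower, and 4 higher and 2 lower from left to right.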

How the data were processed

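According to the paper, 50 bp read pairs were mapped to GRCm38 with the GENCODE M22 annotation, and the submitters' processing notes name STAR 2.7.2a, Cufflinks 2.2.1 and GRCm38.p6. The authors deposited FPKM from Cufflinks in 1 table per library, with no further scaling stated. Strand-specific counting is not given in the sources used here. The paper's DESeq2 test on counts was not run, as FPKM are not counts.

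Groups came from the labels. Genes that reached 1 FPKM in 3 or more of the 9 libraries were tested on log2(FPKM + 1) with limma 3.58.1 in R 4.3.3 (trend, 6 libraries per comparison), adjusted by Benjamini-Hochberg over 13493 genes, threshold 0.05, and tested on simulated data. Depth was estimated from the steps between low FPKM of 3386 genes. Correlations of same-numbered libraries after removal of group means ran from -0.177 to 0.16, so no pairing was used. Genes named from the wider list are, per role and comparison, at most the 3 largest called differences without overlap of groups. A gene named for a comparison can overlap in another. The members and lists were chosen with earlier results of these data known. Coordinates are on GRCm38, counted from 1. Python 3.11.15 with pandas 2.3.3, numpy 2.4.6 and matplotlib 3.10.9 was used.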

Additional observations from a re-analysis of the deposited data

How the results depend on the processing

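Other pseudocounts, filters, scalings and models were tried, and each library was left out in turn. Axin2 kept its order of groups in all 13 alternatives of each comparison. Its groups did not overlap, so leaving out libraries or changing the pseudocount could not have turned that order. As Axin2 was also noted in the choice of the genes, this is a description alone. Its log2 difference between the NUP98-NSD1 groups was -2.98, -4.86 with a pseudocount of 0.1, which shrinks low values less, and -3.17 to -2.85 without single libraries. Calls among all genes moved from 7036 to 3065 in NUP98-NSD1 against NRASG12D with 1 fit of all 9 libraries (4736 to 7948 without single libraries). In NUP98-NSD1+NRASG12D against NRASG12D they were 5173, and 3069, 3159 and 2941 without NRASG12D replicates 1, 2 and 3 (2941 to 6327 in all). Between the NUP98-NSD1 groups 1162 became 152 without a filter, 3500 with array weights and 2251 with 1 fit, and 417, 302 and 283 without NUP98-NSD1 replicates 1, 2 and 3, 2509 and 494 without NUP98-NSD1+NRASG12D replicates 1 and 3 (283 to 2509). Median-ratio scaling moved the higher share of calls from 80.9% to 49.3% and from 63.1% to 50.9% against NRASG12D, quantile normalization to 43.2% and 41.3%. The wider list's 6 calls between these groups became 1, 18 and 14 with no filter, array weights and 1 fit (3 to 9 without single libraries), its 24 and 20 calls against NRASG12D 18 to 27 and 17 to 24 without single libraries.

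Of the members, the 1 call in NUP98-NSD1 cells became 0 with quantile normalization and 3 with array weights (0 to 2 without single libraries, 0 without NRASG12D replicate 1 or 3 or NUP98-NSD1 replicate 1 and 2 without NUP98-NSD1 replicate 3). The 2 calls in NUP98-NSD1+NRASG12D cells became 1 without a filter and with either scaling (1 to 2 without single libraries). Without a filter Tcf7 was called in NUP98-NSD1 (limma adjusted p = 0.0125) and not in NUP98-NSD1+NRASG12D cells (0.0739). Signs turned with median-ratio scaling for Axin1 (-0.053) and Ctnnb1 (-0.055) in NUP98-NSD1 and Rnf43 (-0.018) in NUP98-NSD1+NRASG12D cells, and with quantile normalization for Axin1 (-0.17), Ctnnb1 (-0.034), Rnf43 (-0.26) and Rnf43 with both oncogenes (-0.14). They also turned with array weights for Gsk3b in NUP98-NSD1 (0.048) and Rnf43 with both oncogenes (-0.091), and without single libraries for Gsk3b in NUP98-NSD1 (0.078 and 0.12, range -0.22 to 0.12) and Rnf43 with both oncogenes (-0.059, range -0.059 to 0.22). The causes were not tested.

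The replicate numbers do not pair the libraries. With a replicate block the calls were 6864, 4531 and 801 of all genes, and the members called in NUP98-NSD1+NRASG12D cells went from 2 to 1, as Ctnnb1 was lost (limma adjusted p = 0.0948). Depth limits Lef1, Tcf7 and Nkd1, which had at most 23.5 fragments in any library.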
